A study of Ovis aries with 10 samples.

Results

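The let-7 miRNAs are 7 of the 152 miRNAs measured on a custom ovine array of sheep lung tissue. They were taken as every miRNA whose array name begins with oar-let-7, namely the members a, b, c, d, f, g and i of the family. The array was hybridised with RNA from 5 female sheep aged 9 months, numbered 2, 3, 6, 7 and 10, which the methods describe as Merinos and as the animals with the most severe fibrosis of the larger study group. From each sheep 1 caudal lung segment labelled as fibrotic and 1 labelled as normal were collected at week 4, which gave 5 fibrotic and 5 normal arrays. The methods describe bleomycin, a drug that injures the lung, as infused into the left caudal segment and saline into the right one, so the normal segment is an internal control of the same animal and not the lung of an untreated sheep. In the sample labels the fibrotic segment is the left one in sheep 2 and 3 and the right one in sheep 6, 7 and 10. The labels were followed, and results are also given with the left segment taken as fibrotic.

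The let-7 miRNAs are among the oldest known animal miRNAs and are nearly identical to one another. They share the same seed, the stretch near the 5′ end of a miRNA that pairs with its targets, and repress messages such as RAS, MYC and HMGA2. In differentiated tissue they are abundant, while in embryonic cells the RNA-binding protein LIN28 holds back their maturation. In the lung they are found in the epithelium, and let-7d is known as a member that is inhibited by transforming growth factor β and that represses HMGA2. Because the members differ at few bases, a probe for one may also capture others, and how far this happened on the array was not tested.

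In the RefSeq annotation of the sheep genome (ARS-UI_Ramb_v3.0) all 7 names had a matching gene, spread over 5 chromosomes. MIRLET7A and MIRLET7D are neighbours inside the annotated span of the gene ZNF169. MIRLET7C lies next to MIR99A, while MIRLET7F lies within the span of HUWE1 and MIRLET7G within that of WDR82. MIRLET7B, MIRLET7C and MIRLET7I each lie within the span of an unnamed gene annotated as protein-coding. No genome build is named for the array, so coordinates are not given.

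The deposited value is 1 background-corrected intensity per probe and array on a linear scale. The summed intensity of the 152 miRNAs lay between 138979 and 146225 on all arrays, so an intensity behaves nearly as a share of the miRNA signal. Of all miRNA values 14.8% were below 1, but none of the 70 let-7 values was, and these ran from 2018 to 9180. Lung tissue could be checked only in part, because the array holds 3 of 6 epithelial, 3 of 5 mesenchymal, 1 of 6 blood, 1 of 3 muscle and 0 of 1 endothelial markers that were listed. The summed intensity of the 3 epithelial ones, oar-miR-200a, oar-miR-200b and oar-miR-200c, was 2400 to 4319 in normal and 3496 to 6712 in fibrotic segments. That of the mesenchymal ones, oar-miR-143, oar-miR-199a-3p and oar-miR-21, was 10047 to 35901 in normal and 15704 to 32962 in fibrotic segments. The single blood marker oar-miR-150 had 445 to 2107 in normal and 309 to 1985 in fibrotic segments, and the single muscle marker oar-miR-133 had 35.2 to 162 and 23.5 to 49.3. The part of cell composition in the let-7 values was not tested, and in tissue RNA fewer cells of a type and less RNA per cell cannot be told apart.

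The let-7 family accounted for 21.9% of the summed miRNA intensity on average over the 10 arrays, although it makes up 4.61% of the miRNA probes. Its share was 21.9% ± 4.68 (SD, n = 5) in the normal condition and 21.9% ± 5.46 (SD, n = 5) in the fibrotic one. The brightest single miRNA outside the family, oar-miR-26a, had a share of 9.36% to 13.6%, which the family exceeded on all 10 arrays. The family share was 19.7%, 28.0%, 15.5%, 23.7% and 22.3% in the normal and 15.6%, 29.5%, 17.9%, 22.3% and 24.3% in the fibrotic segments of sheep 2, 3, 6, 7 and 10, listed in this order of animals throughout. Sheep 3 was highest in both segments, and the lowest values came from the normal segment of sheep 6 and the fibrotic segment of sheep 2, so the conditions overlapped over almost their whole range. The difference of fibrotic minus normal averaged 0.048 percentage points, with an SD of 2.76 over the 5 sheep, and was above 0 in 3 sheep and below 0 in 2. Its sign depended on single animals, with 1.08 points without sheep 2, 0.43 without sheep 7, -0.30 without sheep 3, -0.42 without sheep 10 and -0.55 without sheep 6, and it was -1.10 with the left segment taken as fibrotic.

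**Figure D1:**
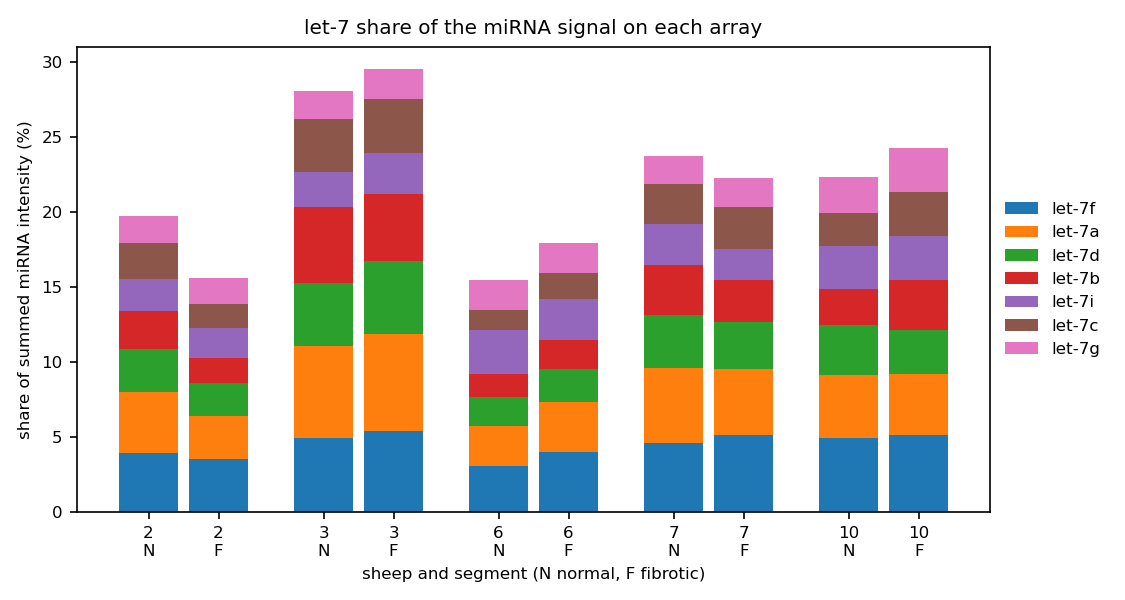
Stacked bars give the share of the summed miRNA intensity in percent held by each of the 7 let-7 members on each of the 10 arrays, with the normal (N) and fibrotic (F) segment of each sheep side by side. The bars reach 28.0% and 29.5% in sheep 3 and 15.5% and 17.9% in sheep 6, and the segments of 1 sheep are closer to each other than sheep 3 and 6 are.

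The signals of the members are given next in the order of their mean intensity. This is an order of probe signals, since probes also differ in how strongly they bind, and it is not an order of molecule numbers.

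The brightest member was oar-let-7f, with a mean intensity of 6316 over the 10 arrays and rank 5 of all 152 miRNAs. Its intensity was 5482, 6950, 4493, 6499 and 7028 in normal segments and 5039, 7627, 5657, 7277 and 7102 in their fibrotic counterparts. It varied 1.70-fold between the lowest and the highest array, with low values in sheep 2 and 6, and the ranges of both conditions overlapped.

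Next was oar-let-7a, the member named after the first let-7 sequence, with a mean of 6129. The values were 5612, 8599, 3877, 7119 and 6065 in the 5 normal segments, against 4092, 9180, 4720, 6354 and 5670 in the fibrotic ones. Both segments of sheep 3 were above every other array, and the conditions overlapped. Its genomic neighbour oar-let-7d had a mean of 4442, with 3998, 5955, 2774, 5037 and 4829 in normal segments and 3171, 6925, 3199, 4453 and 4085 in their fibrotic counterparts. It followed oar-let-7a closely, being dimmer on all 10 arrays by a log2 difference of 0.47 ± 0.051 (SD over 5 sheep), and its conditions overlapped as well.

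The widest range of the family was that of oar-let-7b, which had a mean of 4115 and varied 3.11-fold over the arrays. Its intensity was 3563, 7150, 2302, 4752 and 3404 in the 5 normal segments, against 2413, 6313, 2701, 3948 and 4599 in the fibrotic ones. For oar-let-7c, the partner of miR-99a in the genome, the mean was 3512, with 3315, 4942, 2018, 3832 and 3233 in normal segments and 2261, 5070, 2403, 3989 and 4056 in their fibrotic counterparts. Both had their 2 highest values in sheep 3 and their lowest in the normal segment of sheep 6, and in both the conditions overlapped.

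The remaining members did not follow this order of animals. The intensity of oar-let-7i was 3005, 3336, 4217, 3814 and 4100 in the 5 normal segments, against 2887, 3921, 3936, 3022 and 4112 in the fibrotic ones, with a mean of 3635 and a range of only 1.46-fold. The dimmest member, oar-let-7g, had a mean of 2925 and rank 19 of 152, with 2457, 2637, 2945, 2673 and 3448 in normal segments and 2526, 2862, 2852, 2770 and 4078 in their fibrotic counterparts. Sheep 10 was high for oar-let-7g in both segments, and the other 8 arrays lay between 2457 and 2945. Again the conditions overlapped.

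**Figure D2:**
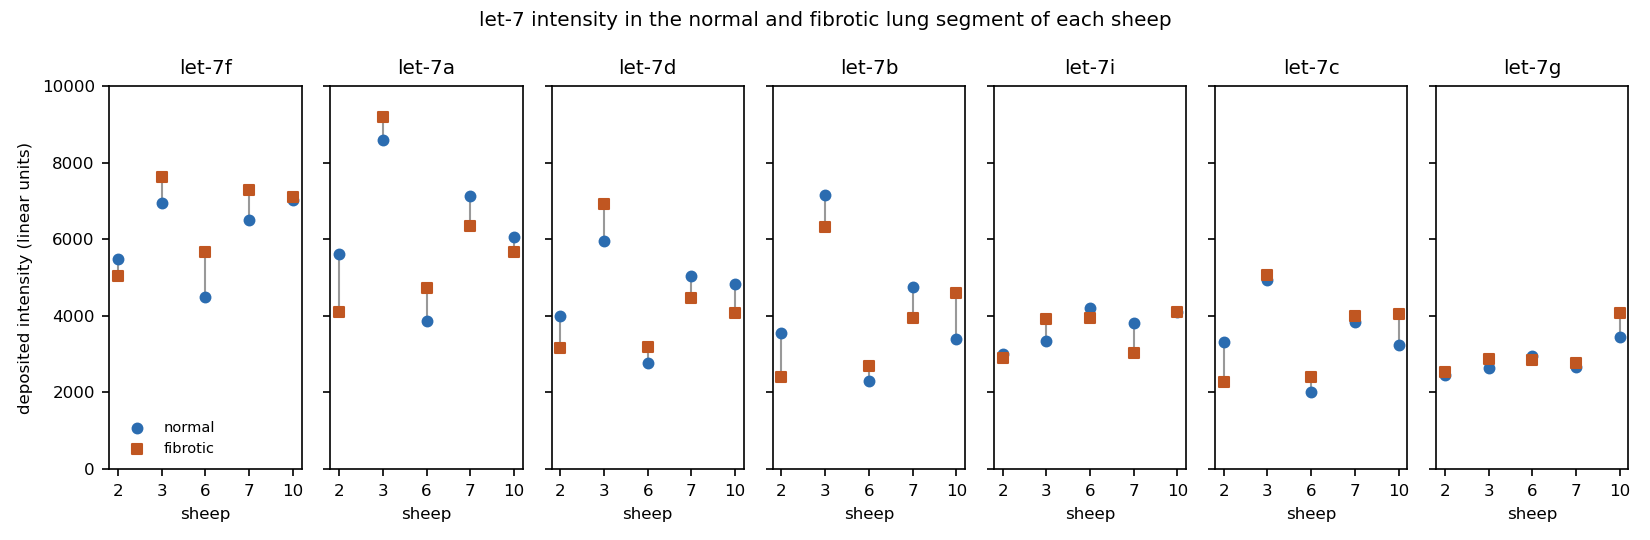
Each panel is 1 let-7 member, ordered by mean intensity, with the deposited intensity in linear units on the vertical axis and the sheep on the horizontal axis; blue circles are normal and orange squares fibrotic segments, joined within a sheep. In let-7a, let-7b, let-7c and let-7d sheep 3 is high and sheep 6 low in both segments, whereas let-7g and let-7i vary less and are low in sheep 2.

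Neighbours in the order of signals were mostly not separated. On the log2 scale oar-let-7f exceeded oar-let-7a by 0.077 ± 0.22 (SD over 5 sheep) and was the brighter one on 6 of 10 arrays. The step from oar-let-7d to oar-let-7b was 0.15 ± 0.14 and held on 8 arrays. Below that, oar-let-7b over oar-let-7i (0.095 ± 0.59), oar-let-7i over oar-let-7c (0.10 ± 0.51) and oar-let-7c over oar-let-7g (0.22 ± 0.49) had differences smaller than their SD between sheep. Only the step from oar-let-7a to oar-let-7d was seen on every array.

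Most of the variation of the let-7 signals lay between animals. Of the sum of squares of log2 intensity over the 10 arrays, the share between sheep was 90.7% for oar-let-7d, 89.2% for oar-let-7a, 88.1% for oar-let-7b, 87.6% for oar-let-7c and 85.8% for oar-let-7f. It was 91.0% for oar-let-7g and 77.9% for oar-let-7i. Both of these had their highest mean over the segments of an animal in sheep 10, whereas the members named before them had it in sheep 3. The share between conditions was at most 4.56%, in oar-let-7f. Its median was 0.74% over the 7 members, 9.40% over the 151 miRNAs with any variation and 7.75% over the 59 with a mean log2 intensity of at least 5. The median share between sheep was 88.1% over the 7 members, 57.7% over the 151 miRNAs with any variation and 72.5% over the 59 miRNAs with a mean log2 intensity of at least 5, which include all 7 members. For oar-let-7b the mean of both segments ran from 2502 in sheep 6 to 6732 in sheep 3, while its largest change within a sheep was 0.56 on the log2 scale.

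The question of the study design was whether fibrotic segments differ from normal segments of the same animal. Changes are log2 intensities of the fibrotic minus the normal segment, from a limma fit in which the sheep was a block, and p-values were adjusted by Benjamini-Hochberg over the 152 miRNAs. Of the 7 let-7 members 0 passed an adjusted p under 0.05, where 0.00% of all miRNAs did. At an unadjusted p under 0.05 the count of members was 0, where 11.8% of all miRNAs passed, and under 0.01, the threshold named in the methods, it was 0 as well, where 0.00% passed. The sign of the change was shared by all 5 animals in 0 of the 7 members and in 13.8% of all miRNAs. The median log2 fold change was -0.051 over the 7 members, 4 of which were below 0, and -0.021 over all 152 miRNAs, 81 of which were below 0. The methods' test, paired here by sheep, also passed 0 members at an unadjusted p under 0.05. The split of directions depends on the scaling, with 7 members below 0 when arrays were centred on the miRNA median and 0 when they were centred on their control probes, steps that moved the median of all miRNAs to -0.18 and 0.39.

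The members with an estimate above 0 were oar-let-7f, oar-let-7g and oar-let-7c. For oar-let-7f the mean intensity was 6091 ± 1085 (SD, n = 5) in the normal condition and 6540 ± 1126 (SD, n = 5) in the fibrotic one, and its log2 fold change of 0.10 had a standard error of 0.12, a 95% interval of -0.20 to 0.41 and a limma adjusted p of 0.650. It was higher in 4 of 5 sheep, with changes of -0.12, 0.13, 0.33, 0.16 and 0.015 by sheep. With arrays centred on the median of all miRNAs its estimate was -0.050, and with the left segment taken as fibrotic it was -0.10.

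For oar-let-7g the mean was 2832 ± 386 (SD, n = 5) in the normal condition and 3018 ± 608 (SD, n = 5) in the fibrotic one, with a log2 fold change of 0.081, a standard error of 0.11, an interval of -0.20 to 0.36 and a limma adjusted p of 0.726. The changes were 0.040, 0.12, -0.046, 0.051 and 0.24 by sheep, an SD of 0.11 that was the smallest of the family. The estimate was -0.074 with arrays centred on the median of all miRNAs and -0.018 with the left segment taken as fibrotic. For oar-let-7c, higher in 4 of 5 sheep but lower by 0.55 in sheep 2, the log2 fold change was 0.024 with 0.17 as its standard error and an adjusted p in limma of 0.939, and its estimate was -0.033 without sheep 6 and -0.051 without sheep 10.

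The other 4 members had estimates below 0 that were each smaller than their standard error. The log2 fold change was -0.069 for oar-let-7b, with a standard error of 0.18, and -0.068 for oar-let-7a, with 0.15. It was -0.066 for oar-let-7d, with a standard error of 0.14, and -0.051 for oar-let-7i, with 0.13. Each of the 4 was lower in 3 of 5 sheep, and limma gave all of them an adjusted p of 0.840. Without sheep 2 the estimates of oar-let-7a, oar-let-7b and oar-let-7d were 0.029, 0.054 and 0.0011, and without sheep 7 that of oar-let-7i was 0.020. The mean intensity of oar-let-7d was 4518 ± 1198 (SD, n = 5) in the normal condition and 4366 ± 1535 (SD, n = 5) in the fibrotic one, and its change was -0.33, 0.22, 0.21, -0.18 and -0.24 by sheep. The 95% intervals of the 7 members together ran from -0.53 to 0.45. They were narrowest for oar-let-7g (-0.20 to 0.36) and widest for oar-let-7b (-0.53 to 0.39). With 5 sheep, a change of any size inside a member's own interval remained possible. Two-sided exact sign-flip permutation tests over the sheep gave p between 0.1875 and 0.8125 for single members, with 0.0625 as the smallest p that 5 sheep allow.

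**Figure D3:**
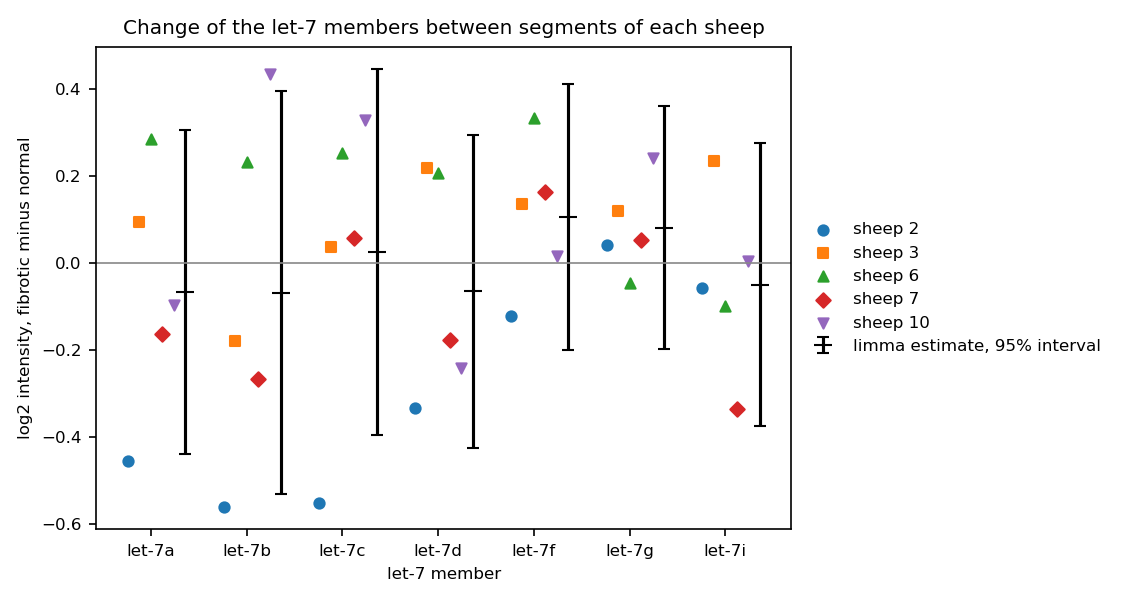
Coloured symbols give the log2 intensity of the fibrotic minus the normal segment for each of the 7 members in each of the 5 sheep, and black bars the limma estimate with its 95% interval. Every interval spans 0, and sheep 2 and 6 lie on opposite sides of 0 for let-7a, let-7b, let-7c, let-7d and let-7f.

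The direction of the change differed between animals. In sheep 2, 6 of the 7 members were lower in the fibrotic segment, with a median log2 change of -0.33, whereas the median over all miRNAs was -0.13 in that sheep. In sheep 6, 5 members were higher and the median was 0.23, against 0.13 over all miRNAs. Sheep 3 had 6 members higher with a median of 0.12, sheep 10 had 5 higher with a median of 0.015, and sheep 7 had 4 lower with a median of -0.16. In these 3 sheep the median over all miRNAs was 0, the value of miRNAs that were set to the floor of 1 in both segments. In the labels sheep 2 has its fibrotic segment on the left and sheep 6 on the right. With the left segment taken as fibrotic in every sheep the median over the 7 members was -0.077, with 5 members below 0, and limma again called 0 of them at an adjusted p under 0.05, the smallest adjusted p among them being 0.908.

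Across the 10 arrays the family split by how the members varied together. The correlations below are descriptions without a p-value, because the 10 arrays come from 5 animals and share nearly the same summed signal. Among oar-let-7a to oar-let-7d the 6 pairwise Pearson r of log2 intensity lay between 0.92 and 0.98 (Spearman rho 0.85 to 0.99), the highest being that of the neighbouring genes oar-let-7a and oar-let-7d. The 4 correlations of oar-let-7f with these members were 0.81 to 0.89 (rho 0.70 to 0.83). In contrast, the 8 correlations of oar-let-7g and oar-let-7i with the same 4 members lay between -0.041 and 0.12 (rho -0.15 to 0.055), while oar-let-7g and oar-let-7i correlated with each other at r = 0.68 (rho 0.90). Those 8 values differed by condition, with r of -0.56 to -0.10 over the 5 normal arrays and 0.11 to 0.50 over the 5 fibrotic ones. With 5 arrays per condition this difference was not tested.

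The median r over all 21 pairs of members was 0.68, beside 0.025 over 11325 pairs of all miRNAs and -0.013 over the 1711 pairs of the 59 brighter ones. An r above 0.9 was reached by 6 of the 21 pairs, or 28.6%, and by 1.99% of the pairs of brighter miRNAs. Without sheep 3 the 6 pairs among oar-let-7a to oar-let-7d still lay between 0.87 and 0.97, and that of oar-let-7g and oar-let-7i was 0.69. Once the mean of each sheep was removed, so that only the difference between its segments was left, the median over the 21 pairs was 0.31. It stayed at 0.91 for oar-let-7a with oar-let-7d and 0.87 for oar-let-7b with oar-let-7c, but fell to 0.32 for oar-let-7b with oar-let-7d and 0.11 for oar-let-7g with oar-let-7i. The pairs of oar-let-7g and oar-let-7i with oar-let-7a to oar-let-7d then lay between -0.43 and 0.47, with a median of 0.17. Among oar-let-7a to oar-let-7d the median was 0.68 and the lowest value 0.32, so the split was less clear within sheep.

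**Figure D4:**
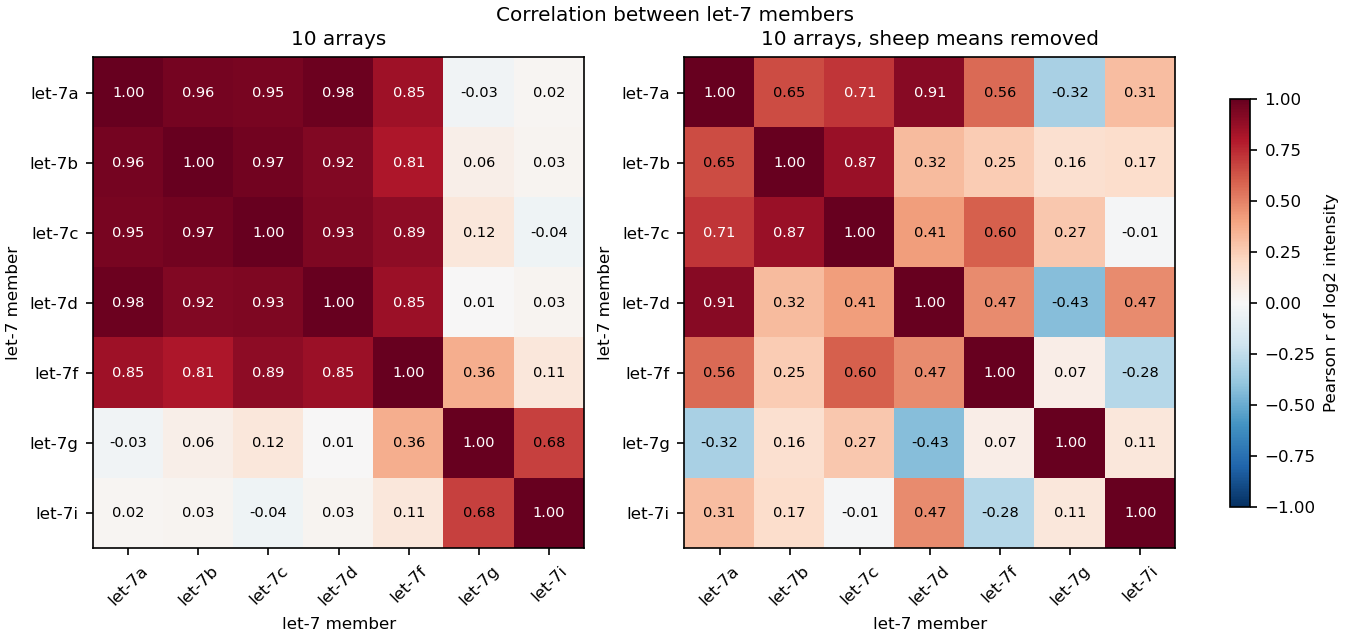
Cells give the Pearson r of log2 intensity between each pair of the 7 let-7 members over the 10 arrays, on the left as measured and on the right after the mean of each sheep was removed, with colours from -1 (blue) to 1 (red). On the left let-7a, let-7b, let-7c, let-7d and let-7f form a block with r of 0.81 to 0.98, apart from let-7g and let-7i, and on the right r stays above 0.8 for let-7a with let-7d and let-7b with let-7c.

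The signals of these groups can also be compared within an array, where no scaling between arrays enters. This comparison restates the values behind the correlations and is not a separate test of the split. The mean log2 intensity of oar-let-7a to oar-let-7d minus that of oar-let-7g and oar-let-7i, groups that were chosen after the values had been seen, was 0.57, 1.14, -0.41, 0.66 and 0.17 in the 5 normal segments, against 0.10, 1.003, -0.091, 0.67 and 0.15 in the fibrotic ones. Sheep 3 had the largest excess of the first group, and in sheep 6 the second group was the brighter one in both segments. The change of this difference from normal to fibrotic averaged -0.060 with an SD of 0.28 over the 5 sheep.

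Some control probes of the array moved with the same members. The mean log2 signal of the 11 control probes whose names end in 3P, a label that the sources used here do not explain, had r = -0.91 with the mean of oar-let-7a to oar-let-7d over the 10 arrays and r = 0.091 with that of oar-let-7g and oar-let-7i. Their geometric mean was 773, 436, 2132, 459 and 1188 in normal segments and 1157, 430, 1296, 941 and 621 in their fibrotic counterparts. Sheep 3, with the highest oar-let-7a to oar-let-7d, thus had the lowest control signal, and the normal segment of sheep 6 the reverse. With the mean of all 7 members r was -0.85, and -0.75 without sheep 3. The 12 probes for 5S ribosomal RNA had r = -0.78 with the mean of oar-let-7a to oar-let-7d and 0.55 with that of oar-let-7g and oar-let-7i, and on 3 arrays, all from sheep 6 and 10, a control probe exceeded 100000. For the median log2 signal of all 55 control probes r was weaker, with -0.35 and 0.39 for these groups of members and -0.28 for the mean of all 7. From normal to fibrotic segments the log2 signal changed by -0.011 for the 3P probes, 0.10 for the 5S probes and -0.41 for the median of all control probes. Cell type markers were compared with the mean of the 7 members as well. Their r was -0.76 for the summed mesenchymal markers, -0.57 for the epithelial ones, 0.35 for oar-miR-150 and -0.025 for oar-miR-133. Single markers of a list differed, with -0.79 for oar-miR-143 and -0.25 for oar-miR-199a-3p, and -0.65 for oar-miR-200c and -0.28 for oar-miR-200b. The median r of the 52 brighter miRNAs outside the family with the same mean was -0.37. The part of the control signals and of these markers in the let-7 pattern was not tested.

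**Figure D5:**
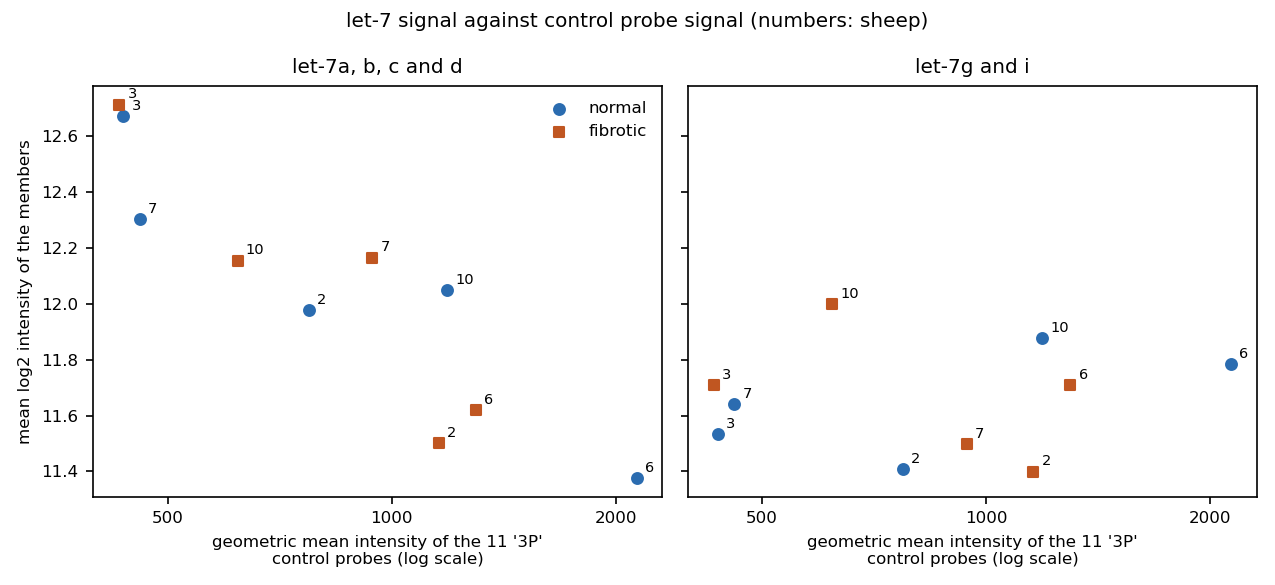
The mean log2 intensity of let-7a, let-7b, let-7c and let-7d (left) and of let-7g and let-7i (right) is plotted against the geometric mean intensity of the 11 control probes ending in 3P on a log axis, 1 point per array, numbered by sheep, with blue circles for normal and orange squares for fibrotic segments. The left panel falls from sheep 3 to the normal segment of sheep 6 (r = -0.91), and the right panel shows no such slope (r = 0.091).

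Outside the family, the miRNAs whose log2 intensity over the 10 arrays was most like the mean of the let-7 members, among the 52 brighter ones, were oar-miR-10b (r = 0.96) and oar-miR-10a (r = 0.94), which in the genome are embedded in the HOX clusters. They were followed by oar-miR-374a (r = 0.75), oar-miR-30a-3p (r = 0.75) and oar-miR-30c (r = 0.72), where the median of the 52 was -0.37. Both miR-10 miRNAs tracked oar-let-7a to oar-let-7d, with r of 0.89 to 0.97. With oar-let-7f r was 0.77 for oar-miR-10a and 0.88 for oar-miR-10b. In the same order it was -7.7e-06 and 0.25 with oar-let-7g, and 0.046 and 0.048 with oar-let-7i. The intensity of oar-miR-10a was 652, 950, 364, 805 and 597 in the 5 normal segments, against 381, 1058, 401, 557 and 644 in the fibrotic ones. Sheep 3 was again the highest animal and sheep 6 the lowest in its normal segment. With the sheep means removed, r with the let-7 mean was 0.90 for oar-miR-10a and 0.82 for oar-miR-10b. The log2 fold change between conditions was -0.18 for oar-miR-10a and -0.10 for oar-miR-10b, with limma adjusted p of 0.622 and 0.840.

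Of 7 further relatives, listed because they share the let-7 seed or belong to the known clusters of let-7 with miR-99 and miR-125 genes, 2 are on the array. The neighbour of oar-let-7c, oar-miR-99a, had an intensity of 1795 to 2935 and correlated with oar-let-7c at r = 0.62, with oar-let-7b at 0.72 and with oar-let-7g at -0.34. Its log2 fold change was -0.15 with 0.16 as its standard error and an adjusted p in limma of 0.622. For oar-miR-125b, with 1793 to 4714, r was 0.60 with oar-let-7c, -0.71 with oar-let-7g and -0.66 with oar-let-7i, and its log2 fold change was -0.082 with 0.15 as its standard error and an adjusted p in limma of 0.835. Neither of the 2 relatives passed the test. Both were lower in the fibrotic segment of sheep 2 and higher in that of sheep 6, as were oar-let-7a to oar-let-7d and oar-let-7f. The median log2 change over all miRNAs had the same directions, with -0.13 in sheep 2 and 0.13 in sheep 6, so this pattern is not particular to these miRNAs.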

How the data were processed

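Total RNA of 10 lung segments was labelled with 1 dye and hybridised to a custom array with 152 ovine miRNA and 55 control probes. Per the methods, the authors subtracted background and averaged replicate spots before they deposited 1 intensity per probe and array. The methods also mention a log2 transformation, but the deposited intensity values are linear, and scaling between arrays is not given in the sources used here. Intensities were set to at least 1, log2 transformed and modelled in limma 3.58.1 (lmFit, eBayes; R 4.3.3; checked on simulated data), with condition and sheep as terms and Benjamini-Hochberg adjustment over 152 miRNAs.

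The sheep pairs the segments because both come from 1 animal. Deviations of a sheep's segments from their condition means correlated at -0.67 to 0.90 over all miRNAs, above 0.1 in 4 of 5 sheep, against a median of -0.090 between sheep. The methods tested each sheep over its spots, which were not analysed here.

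The 7 members and all lists were chosen with earlier results of these data known. Named miRNAs were the members, listed relatives and cell type markers, the brightest miRNA outside the family and the 5 most like the let-7 mean. The alternatives were 4 scalings between arrays, centring on the let-7 mean, a floor of 32 and a filter at a mean log2 of 5. Further ones were no block, side as covariate, an intensity trend and a t-test paired by sheep. The rest were other codings of the segments, other denominators of the share, and leaving out each sheep. The number of arrays limits the precision.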

Additional observations from a re-analysis of the deposited data

Results flagged for a closer look

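In the fibrotic segments the log2 intensity of oar-let-7g in sheep 10 lay far from the other 4, with a gap to its nearest neighbour of 0.739 of the whole range of the group, above the critical value of 0.71 for 5 samples. The intensity was 4078 in sheep 10 and 2526 to 2862 in the others. It was the single such value among 24 groups of 5 that were examined, and chance gives about 1 in 20.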

How the results depend on the processing

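The count of let-7 members with an adjusted p under 0.05 was 0 under each of 17 alternatives. It was also 0 with arrays centred on the mean of the 7 members, which is not among the 17. Over the members and all alternatives the limma or paired-test adjusted p was 0.467 or higher. No member kept its direction throughout. When the control probes were used to centre each array, a step that raises every mean change by the same amount and the median of all miRNAs to 0.39, the median over the members was 0.36, with 0.34 for oar-let-7a, 0.34 for oar-let-7b, 0.34 for oar-let-7d and 0.36 for oar-let-7i. With arrays centred on the miRNA median, where the median of all miRNAs was -0.18, oar-let-7c was at -0.13, oar-let-7f at -0.050 and oar-let-7g at -0.074. Centring on the 75th percentile gave 0.0096 for oar-let-7i, and quantile normalization gave 0.032 for oar-let-7d and 0.12 for oar-let-7i. With the left segment taken as fibrotic the estimates were -0.23 for oar-let-7c, 0.019 for oar-let-7d, -0.10 for oar-let-7f, -0.018 for oar-let-7g and 0.12 for oar-let-7i. In sheep 2 and 3 alone they were -0.26 for oar-let-7c and 0.088 for oar-let-7i, and with side as a covariate -0.023 for oar-let-7c.

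Leaving out 1 sheep moved oar-let-7a between -0.16 and 0.029, oar-let-7b between -0.19 and 0.054, oar-let-7c between -0.051 and 0.17, oar-let-7d between -0.14 and 0.0011, and oar-let-7i between -0.12 and 0.020. The median correlation between members was 0.96 with arrays centred on control probes, which adds the same array-wide shift to every member, 0.56 after quantile normalization, 0.53 to 0.81 with 1 sheep left out, lowest without sheep 2 and highest without sheep 10, and 0.31 with sheep means removed as a replicate block. Without the block in limma the estimates stay as they are by construction, and the standard errors were 0.17 to 0.36 in place of 0.11 to 0.18. The share difference of 0.048 points was below 0 under 7 of 11 alternatives and ran from -1.32 in sheep 2 and 3 alone to 1.08 without sheep 2, with -1.10 for the left segment taken as fibrotic, all of them smaller than its SD of 2.76 over sheep. The cause was not tested where none is named.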
